A study of Mus musculus with 4 samples.

Results

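The genes described here are 6 of the 397 immune genes of a targeted single-cell panel: S100a8, S100a9, Mmp9, Clec4d, Clec4e and Trem1. They were chosen by name as genes of neutrophil granules and of lectin and TREM receptors of myeloid cells. The rule names them and uses no measured value, but it was written with earlier results of these data known. The cells came from the right hemisphere, without cerebellum or olfactory bulb, of 4 male mice aged 9 months, each sequenced as 1 library after perfusion, cold digestion and removal of myelin. All mice carried 5XFAD, human transgenes with familial Alzheimer mutations that neurons express, and so all developed amyloid. Of these, 2 were Abi3-/-, in which every cell of the body lacks Abi3, and 2 were Abi3+/+, and per the study's methods all 4 were heterozygous for a Trem2 variant of the SJL background. Abi3 is not in the panel, so the genotype could not be checked in these data. With 2 mice a genotype, an exact permutation test over mice cannot give a two-sided p below 0.333.

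Neutrophils are short-lived white cells that patrol the blood and enter tissue along chemokine gradients read by the receptor CXCR2. S100a8 and S100a9 encode the subunits of calprotectin, a calcium- and zinc-binding protein that fills the neutrophil cytosol and that signals through TLR4 once released. Mmp9 encodes gelatinase B, a matrix-cutting protease stored in granules. Clec4d (MCL) and Clec4e (Mincle) are C-type lectin receptors that bind glycolipids and signal through the Fc receptor gamma chain, which Fcer1g encodes. Trem1 amplifies inflammatory signals in neutrophils and monocytes, and belongs to the same receptor family as Trem2, the receptor that marks microglia here.

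Of the 6 genes, 4 lie in the genome as neighbouring pairs. In GRCm38 (mm10), S100a8 (chr3:90669071-90670034) and S100a9 (chr3:90692630-90695721) are 22.6 kb apart, and Clec4d (chr6:123262107-123275268) and Clec4e (chr6:123281789-123289871) are 6.5 kb apart, with 0 annotated genes in either gap. Mmp9 is at chr2:164940326-164955850. Trem1 (chr17:48232713-48246927) is 99.5 kb from Trem2 (chr17:48346401-48352276), with 4 genes between them. The RefSeq promoters of both pairs are shown because the genes of a pair are neighbours, and those of Mmp9 and Trem1 are not shown. Each line is the 250 bases before the gene's start on its own strand, with capitals for GAGGAA, a core of sites of the myeloid factor PU.1, and TTNNGCAA, a core of C/EBP sites, both searched on both strands.
S100a8 (chr3:90668821-90669070, plus strand): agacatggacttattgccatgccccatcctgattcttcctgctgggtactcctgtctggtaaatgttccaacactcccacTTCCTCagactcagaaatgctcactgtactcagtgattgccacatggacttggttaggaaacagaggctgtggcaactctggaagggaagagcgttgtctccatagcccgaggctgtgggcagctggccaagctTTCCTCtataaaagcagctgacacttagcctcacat
S100a9 (chr3:90695722-90695971, minus strand): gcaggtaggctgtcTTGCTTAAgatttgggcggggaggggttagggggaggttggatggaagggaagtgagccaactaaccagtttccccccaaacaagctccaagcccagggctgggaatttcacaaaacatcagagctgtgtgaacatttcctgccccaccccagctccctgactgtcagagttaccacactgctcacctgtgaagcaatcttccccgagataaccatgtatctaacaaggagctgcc
Clec4d (chr6:123261857-123262106, plus strand): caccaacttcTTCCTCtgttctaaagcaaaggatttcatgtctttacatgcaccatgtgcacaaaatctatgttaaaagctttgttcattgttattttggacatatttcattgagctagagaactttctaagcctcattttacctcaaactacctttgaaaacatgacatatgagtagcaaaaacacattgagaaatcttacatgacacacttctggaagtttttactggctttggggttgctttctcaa
Clec4e (chr6:123289872-123290121, minus strand): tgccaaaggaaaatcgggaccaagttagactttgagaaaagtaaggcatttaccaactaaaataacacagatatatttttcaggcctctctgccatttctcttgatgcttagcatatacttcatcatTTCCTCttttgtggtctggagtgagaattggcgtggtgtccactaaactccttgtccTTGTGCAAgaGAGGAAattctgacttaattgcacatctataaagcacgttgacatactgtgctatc
The PU.1 letters occurred in S100a8 (170 and 36 bases before the start), Clec4d (240) and Clec4e (123 and 56), and the C/EBP letters in S100a9 (236) and Clec4e (66). Of the 32851 mouse promoter windows of this length, 23.25% held the PU.1 letters and 9.56% the C/EBP letters. These matches describe the letters of the windows and are not measured binding sites.

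Cells with at least 40 genes and no more reads than an upper limit were kept (the deepest kept cell had 59271 reads), which left 13820 of 21172 cells, between 2321 and 4499 a mouse, with 61058416 to 102612276 reads. They were sorted into classes by genes that are not among the 6 members. A Cxcr2-positive cell had a Cxcr2 read and under 1% of its reads from Trem2, and a microglial cell took at least 1% of its reads from Trem2. A macrophage had reads of at least 3 of Ccr2, F13a1, Clec10a, Cd163, Flt3 and Kcne3, and lymphocytes were set aside by T and B cell genes before these rules. There were 107 Cxcr2-positive cells, 71 macrophages, 12972 microglia and 307 T cells. Of the genes held back to check the classes, all 6 microglial ones (Cx3cr1, C1qa, C1qb, Adgre1, Selplg and Entpd1) were read in over 50% of the microglia of each mouse. In the Cxcr2-positive cells, Il1r2 was read in 58.9%, whereas Cxcr1 was read in 3.74% and Adgrg3 in 8.41%. Of the microglial check genes, Cx3cr1 was read in 1.87% of them, C1qb in 8.41%, C1qa in 11.2%, Adgre1 in 22.4%, Entpd1 in 51.4% and Selplg in 85.0%. The macrophages are the least secure class, because only 1 of their 4 check genes (Itga4, in 76.1%) passed 50%, and the others were Fn1 (33.8%), Chil3 (16.9%) and Fcna (12.7%). Pairs of libraries shared 17 to 42 cell barcodes, at most 0.826% of the smaller library.

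All 6 members were at their highest in the Cxcr2-positive cells, in every mouse. S100a8 was read in 100% of these cells, and it took 45.3% of the reads of the class in Abi3-/- mouse 1, 57.4% in Abi3-/- mouse 2, 58.2% in Abi3+/+ mouse 1 and 60.1% in Abi3+/+ mouse 2. In the median Cxcr2-positive cell, 57.0% of all reads came from this 1 gene, and single cells ranged from 0.337% to 75.3%. Its partner S100a9 stood at 12770, 9129, 12211 and 8046 CPM in the same order of mice (reads of the gene for every 1000000 reads of the class), and was read in 103 of the 107 cells. The 4 cells without an S100a9 read were shallow, with a median of 8814 reads against 28620 in the others. The panel amplifies each gene with its own primers and the values are reads and not molecules, so the gap between S100a8 and S100a9 does not measure how much of each was made.

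Mmp9, like S100a8, was read in all 107 Cxcr2-positive cells. Its level was 15180 and 21355 CPM (Abi3-/- 1 and 2) and 22260 and 17357 CPM (Abi3+/+ 1 and 2), so the mice lay within a narrow range and the genotypes overlapped. Clec4d was read in 104 of the 107 cells, at 3680 and 6084 CPM without Abi3 and 4625 and 6378 CPM with it. Its neighbour Clec4e was read in fewer of them, 68 of 107 (63.6%), at 2222 and 1966 CPM without Abi3 and 2839 and 1382 CPM with it. Cells with a Clec4e read had a median of 31697.5 reads in all and cells without one 22712. Trem1 was read in 73 of 107 cells (68.2%), and here too the cells with a read were deeper, with a median of 35138 against 18141.5 reads. The part of depth in these shares was not tested. When each cell was thinned to 10000 reads, Clec4e was read in 65.3% and Trem1 in 66.7% of the 72 cells of Abi3-/- mouse 2 that were deep enough, against 62.5% and 63.7% of its 80 cells without thinning. A cell of that mouse with a read of these genes had at least 9 (Clec4e) or 11 (Trem1) of them, so thinning could remove few detections and says little about depth.

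The members occurred together in the same cells. Of the 107 Cxcr2-positive cells, 44 had reads of all 6 members, 47 of 5, 15 of 4 and 1 of 3. In contrast, 12589 of the 12972 microglia and 62 of the 71 macrophages had none, and no macrophage and no T cell had more than 1. Kept cells with 4 or more members but no Cxcr2 read were few, with 1 and 3 in Abi3-/- mice 1 and 2, and 0 and 2 in Abi3+/+ mice 1 and 2. The 14 cells with both Cxcr2 and at least 1% Trem2 were kept apart, and only 2 of them had an S100a8 read.

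**Figure D1:**
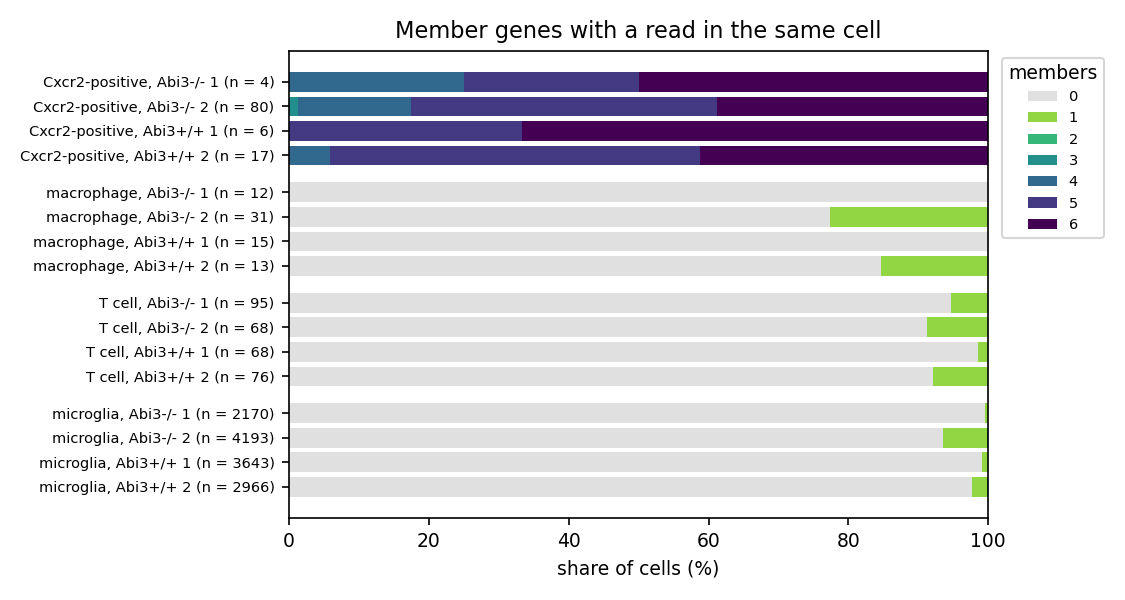
Share of cells (x axis, percent) with reads of 0 to 6 of the members in the same cell, for each cell class and mouse, with the number of cells in brackets. All Cxcr2-positive cells had 3 or more members, whereas macrophages and T cells had 0 or 1.

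The Cxcr2-positive cells were compared with microglia over sums of reads per mouse (edgeR's quasi-likelihood test with the mouse as a block and Benjamini-Hochberg adjustment over 269 genes). Abi3-/- mouse 1 had only 4 such cells, under the minimum of 5, so its Cxcr2-positive sum did not enter this fit. All 6 members were higher in Cxcr2-positive cells, beside 40 of the 269 genes tested (14.9%) that were higher and 108 (40.1%) called in either direction. The members passed the filter on low counts through the class in which they were high, so this count is a description. S100a8 had a log2 fold change of 13.53 ± 2.04 (SE, adjusted p = 0.00251 by edgeR). In CPM, the S100a8 level of Cxcr2-positive cells was 18399, 2165, 34596 and 4739 times that of the microglia of the same mouse (Abi3-/- 1 and 2, Abi3+/+ 1 and 2). The first of these ratios rests mostly on 1 microglial cell, which held 1269 of the 1422 S100a8 reads of its class. Clec4d had a log2 fold change of 11.87 ± 2.38 (SE, adjusted p = 0.00742 by edgeR), and its level was 1631 to 7472 times the microglial one.

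The other 4 members had adjusted p from edgeR of 0.0131 (S100a9), 0.0194 (Clec4e), 0.0203 (Mmp9) and 0.0205 (Trem1). Each had 0 reads in the microglia of at least 1 mouse, so its fitted fold change depends on the prior count and is not given. Among the mice with reads in microglia, the ratio of the levels was 4067 and 56707 for S100a9, 1833 and 4713 for Mmp9, 713 to 6278 for Clec4e and 629 to 3228 for Trem1. The S100a8 call held under all 12 other settings tried. Without Abi3+/+ mouse 2 the other 5 lost their calls (adjusted p 0.0527 to 0.0772), without Abi3-/- mouse 2 Clec4e, Mmp9 and Trem1 did (0.0671 to 0.103), and without Abi3+/+ mouse 1 S100a9 and Clec4e did (0.0653 and 0.0859). Over all genes tested the median log2 fold change was -2.97 in this fit, -2.38 with DESeq2's size factors and -3.65 with library size alone.

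**Figure D2:**
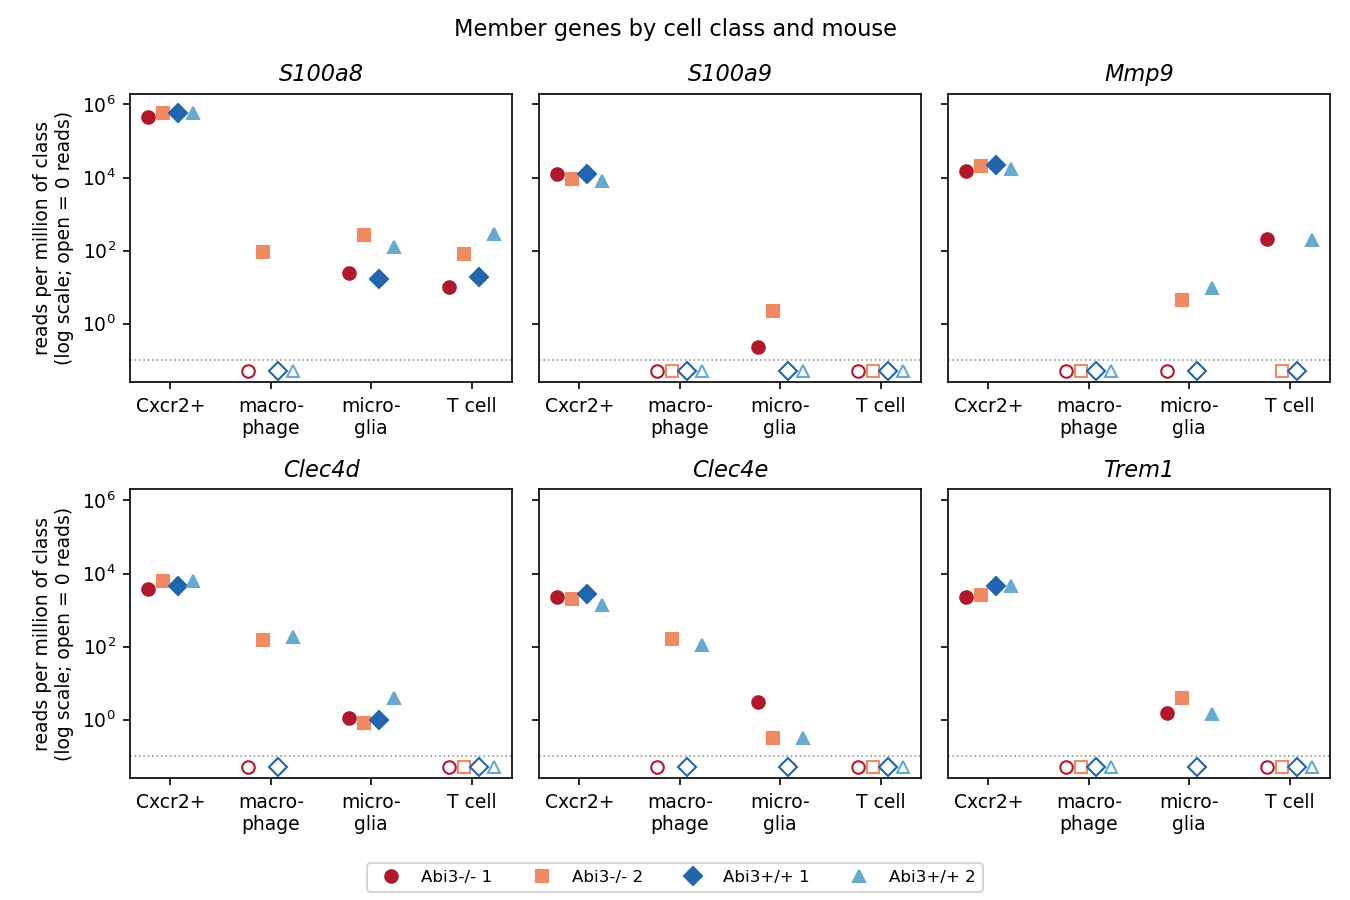
CPM of each member (y axis, log scale) in Cxcr2-positive cells, macrophages, microglia and T cells, 1 point a mouse, with open points below the dotted line for 0 reads. The Cxcr2-positive points are highest for each gene, and S100a9, Mmp9 and Trem1 are at 0 in the macrophages of all 4 mice.

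The macrophages had reads of the lectins in a few cells and none of 3 other members. S100a9, Mmp9 and Trem1 had 0 reads in the 71 macrophages, which allows up to 4.23% of cells with a read and limits detection, not expression, although the macrophages were deeper (median 41666 reads) than the Cxcr2-positive cells (27919). Against a floor of 3 reads a library, their levels in Cxcr2-positive cells were at least 1365-fold (S100a9), 2529-fold (Mmp9) and 374-fold (Trem1) higher in every mouse. A cell with one of these genes had at least 8 reads of it in these libraries, so a single further cell would lower these bounds. S100a8 was read in 2 of 31 macrophages of Abi3-/- mouse 2, with 107 reads in all, and in 0 of the 12, 15 and 13 of the other mice. Clec4d was read in 2 of 31 macrophages of Abi3-/- mouse 2 and 1 of 13 of Abi3+/+ mouse 2, at 153 and 183 CPM. Clec4e was read in 3 of 31 and 1 of 13 macrophages of the same mice, at 160 and 108 CPM. In those mice the Cxcr2-positive level was 39.7 and 34.9 times the macrophage one for Clec4d and 12.3 and 12.8 times for Clec4e, whereas over the microglia there it was 7472 and 1631 times for Clec4d and 6278 and 4423 times for Clec4e. None of the 9 macrophages with a member had a second one.

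Between Cxcr2-positive cells and macrophages, 5 members were higher in the former by edgeR, beside 22 of 269 genes (8.18%) that were higher. The comparison shares its Cxcr2-positive sums with the one against microglia, and here too the members passed the filter through the class in which they were high, so the count and the p are a description. S100a8 had an adjusted p of 0.00219, S100a9 0.0162, Clec4d 0.0179, Trem1 0.0179 and Mmp9 0.0225. Clec4e did not pass, with a log2 fold change of 7.47 ± 2.58 (SE, adjusted p = 0.0682 by edgeR), a value that depends on the prior count because 2 mice had 0 reads of it in macrophages, and it did with DESeq2 (0.000378) and limma (0.00193). Without Abi3+/+ mouse 2, S100a9, Mmp9, Clec4d and Trem1 lost their calls (0.0649 to 0.0771), as did S100a9 and Clec4d without Abi3+/+ mouse 1 (0.0771 both) and Mmp9 and Trem1 without Abi3-/- mouse 2 (0.118 and 0.0652), and Clec4d with a gate of 2 macrophage genes (0.0775).

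Between macrophages and microglia, 0 of the 6 members passed by edgeR, beside 59 of 269 genes (21.9%), and 2 of the 6 had an unadjusted p under 0.05. The values pointed in different directions. Clec4e and Clec4d had log2 fold changes of 7.37 ± 3.01 (SE, adjusted p = 0.121) and 4.17 ± 1.83 (SE, adjusted p = 0.137), and both passed with DESeq2 (0.000291 and 0.00366) and with no mouse block (0.0448 and 0.0243). S100a8 had a value of -3.83 ± 1.40 (SE, adjusted p = 0.0907), which was -0.011 with limma on mean log-normalized values (0.975), and it passed with DESeq2 (0.0148) and without Abi3-/- mouse 2 (0.0344), the only mouse with an S100a8 read in macrophages. In that mouse the shares of cells with S100a8 were close, 6.45% of 31 macrophages and 6.08% of 4193 microglia. All 3 genes had 0 reads in the macrophages of at least 2 mice, so these fold changes depend on the prior count.

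The microglia held few reads of the members, and nearly all were S100a8. In the microglia, S100a8 was read in 7 of 2170 cells of Abi3-/- mouse 1 (0.323%, 95% exact interval 0.130 to 0.664%), 255 of 4193 of Abi3-/- mouse 2 (6.08%, 5.38 to 6.85%), 32 of 3643 of Abi3+/+ mouse 1 (0.878%, 0.602 to 1.24%) and 62 of 2966 of Abi3+/+ mouse 2 (2.09%, 1.61 to 2.67%). These intervals cover counting error only. Any of the other 5 members was read in 38 of the 12972 microglia: Mmp9 in 15, Trem1 in 10, S100a9 and Clec4d in 7 each and Clec4e in 3. Of the 356 microglia with S100a8, 313 had fewer than 100 of its reads, and the median was 25 reads against 16754 in Cxcr2-positive cells. At the other end, 22 microglia took at least 1% of their reads from S100a8, up to 46.3%.

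T cells had S100a8 reads too. It was read in 1 of 95 T cells of Abi3-/- mouse 1 (1.05%, 0.0266 to 5.73%), 6 of 68 of Abi3-/- mouse 2 (8.82%, 3.31 to 18.2%), 1 of 68 of Abi3+/+ mouse 1 (1.47%, 0.0372 to 7.92%) and 3 of 76 of Abi3+/+ mouse 2 (3.95%, 0.822 to 11.1%). In each mouse this interval overlapped that of the microglia, at median depths of 16897 reads in T cells and 21378 in microglia. The median T cell with S100a8 had 17 of its reads. These intervals rest on 1 to 6 T cells a mouse, and the difference between the classes was not tested. The classes were not gated alike. T cells were sorted first, whatever their Trem2 or Cxcr2 reads, and 25 of the 307 had a Trem2 read and 1 a Cxcr2 read. The microglial shares were at or below those of the T cells. The S100a8 level was higher in microglia in both Abi3-/- mice (24.6 against 10.4 CPM and 265 against 79.9) and lower in both Abi3+/+ mice (16.8 against 18.7 and 127 against 289). Single cells carried some of these levels. In Abi3-/- mouse 1, 1 microglial cell held 1269 of the 1422 S100a8 reads of its class, and in Abi3+/+ mouse 2, 1 T cell held 322 of 388. No order of the classes, and no split by genotype, is therefore read. No T cell came near the highest microglia, with at most 1.31% of its reads from S100a8.

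**Figure D3:**
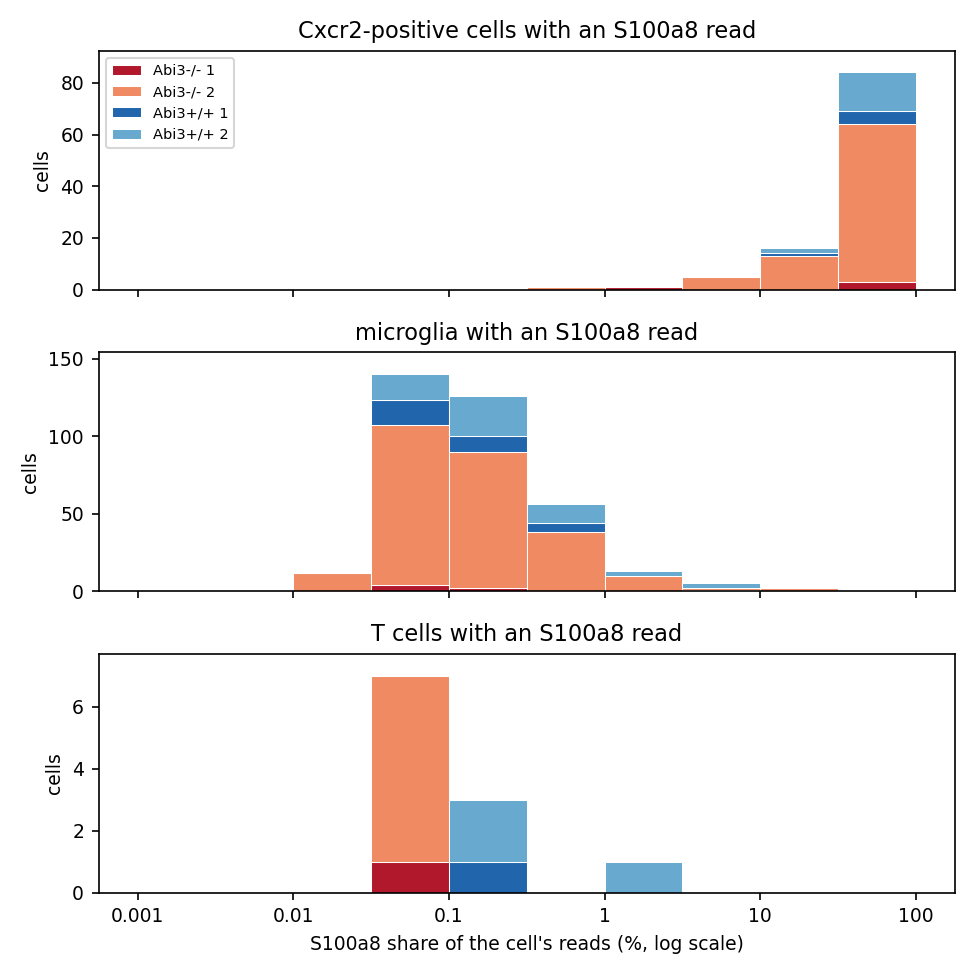
Number of cells (y axis) by the share of their reads that came from S100a8 (x axis, percent, log scale), for cells with at least 1 S100a8 read, coloured by mouse. Most Cxcr2-positive cells lie above 10%, and most microglia and T cells lie below 1%.

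The mice differed in how many neutrophils their libraries held, and the S100a8 share of microglia followed the order of these counts. The libraries of Abi3-/- mouse 1, Abi3+/+ mouse 1, Abi3+/+ mouse 2 and Abi3-/- mouse 2 had 4, 6, 17 and 80 kept Cxcr2-positive cells, and 0.323%, 0.878%, 2.09% and 6.08% of their microglia had an S100a8 read. As a share of kept cells, which allows for the size of the library, the lowest 2 mice change places, with 0.172% Cxcr2-positive cells in Abi3-/- mouse 1 and 0.158% in Abi3+/+ mouse 1, followed by 0.531% and 1.78%. Per 100 kept Cxcr2-positive cells these are microglial shares of 8.06%, 14.6%, 12.3% and 7.60%. Counted over all cells of the libraries, also those above the read limit, the Cxcr2-positive cells numbered 6, 11, 55 and 137, and the shares per 100 of them are 5.38%, 7.99%, 3.80% and 4.44%, so the order among the mice depends on which cells are counted. The T cells had the same order of shares. In CPM, the 2 mice with more Cxcr2-positive cells again had the higher S100a8 level in microglia (127 and 265 against 24.6 and 16.8) and in T cells (289 and 79.9 against 10.4 and 18.7). Within each of these pairs of mice the order by CPM went against that by share in 1 of the classes, so no order is read there. In both cases 1 cell held most of the reads behind the higher level. It held 1269 of 1422 in the microglia of Abi3-/- mouse 1 and 322 of 388 in the T cells of Abi3+/+ mouse 2. Both genotypes have 1 mouse with few and 1 with more Cxcr2-positive cells, and in both the mouse with few is the one numbered 1, so the number of these cells cannot be told apart from the replicate number. C1qb in microglia, 1 gene picked as an example, followed the same split. It stood at 68569 and 57480 CPM in the mice numbered 1 and 22228 and 24183 in those numbered 2. How many genes did so was not counted. Over 319 genes the deviations of same-numbered mice correlated at 0.146 in microglia. Thinned to 10000 reads, the microglial shares were 0.324%, 0.915%, 2.12% and 6.19%, but a microglial cell with S100a8 had at least 10 of its reads, so thinning could remove few detections and says little about depth.

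**Figure D4:**
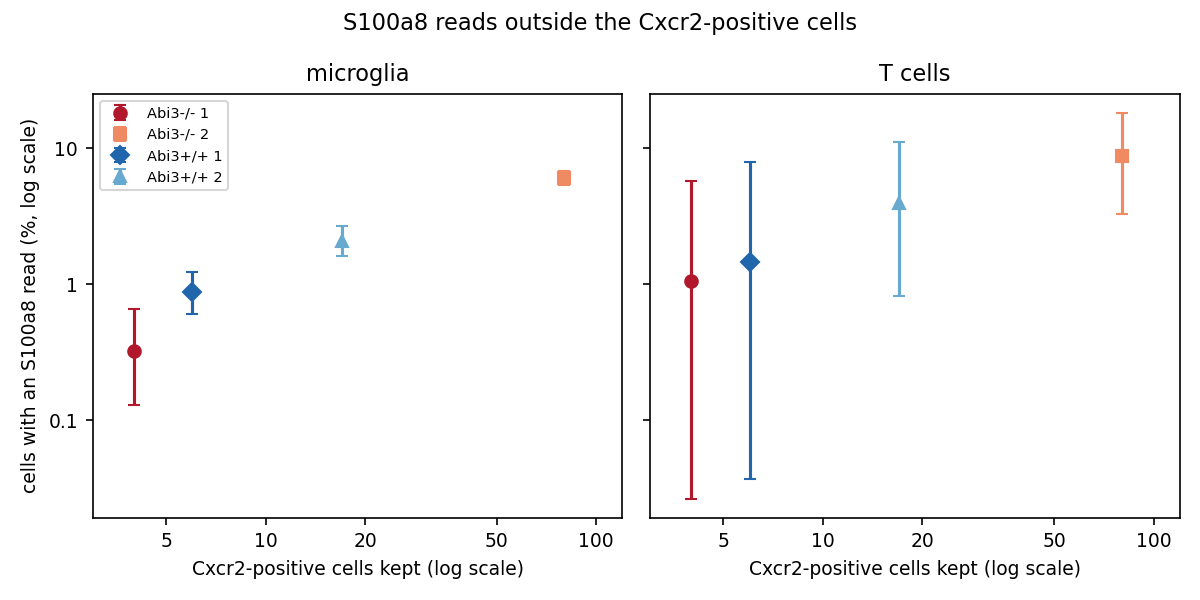
Share of microglia (left) and of T cells (right) with an S100a8 read (y axis, percent, log scale) against the number of kept Cxcr2-positive cells of the same mouse (x axis, log scale), with exact 95% binomial intervals. The share is lowest at 4 and highest at 80 Cxcr2-positive cells in both classes.

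Free RNA from 1 source would bring the members into other cells in the proportions they have in that source. Those proportions, scaled to the S100a8 level, were set beside the measured values as a description, and whether free RNA brought the reads there was not tested. Only kept Cxcr2-positive cells entered the proportions, and the Cxcr2-positive cells above the read limit had a higher median share of S100a8 in each mouse. In the microglia of Abi3-/- mouse 2, S100a8 stood at 265 CPM. There the proportions of its kept Cxcr2-positive cells would give 4.22 CPM of S100a9, 9.86 of Mmp9, 2.81 of Clec4d, 0.908 of Clec4e and 1.17 of Trem1. The measured values were 2.24, 4.53, 0.814, 0.313 and 4.04, so only Trem1 was above its proportion. In the microglia of Abi3+/+ mouse 2 the proportions give 1.70, 3.66, 1.35, 0.292 and 0.981, and the measured values were 0, 9.47, 3.91, 0.312 and 1.44. In the microglia of Abi3-/- mouse 1, S100a8 stood at 24.6 CPM and the proportions give 0.694 (S100a9), 0.825 (Mmp9), 0.200 (Clec4d), 0.121 (Clec4e) and 0.122 (Trem1), against 0.225, 0, 1.14, 3.12 and 1.54 measured. Of the 1422 S100a8 reads behind that level, 1269 lay in 1 cell, so the proportions of this mouse rest mostly on it. In the microglia of Abi3+/+ mouse 1, Clec4d was at 0.954 against 0.134, and the other 4 had 0 reads. Of the 5 genes, 1 to 4 were thus above their proportion in each mouse, and each value rests on at most 10 cells. In Abi3-/- mouse 1 a cell with Clec4d, Clec4e or Trem1 had at least 26, 35 or 8 reads of it. That is more than the proportion gives for all its microglia, so these genes could only be at 0 or above it. The same held for Clec4d in Abi3+/+ mouse 1, with at least 29 reads a cell. In the macrophages the lectins were above their proportion in the mice with reads of them. In Abi3-/- mouse 2, 0.944 CPM of Clec4d and 0.305 of Clec4e go with the S100a8 of its macrophages, against the 153 and 160 measured, and in Abi3+/+ mouse 2 both lectins had reads where S100a8 had 0. That S100a8 of Abi3-/- mouse 2 was 107 reads in 2 cells. A cell of its library with Clec4d or Clec4e had at least 15 or 9 reads of it. In both mice 1 macrophage with a read would therefore put the gene above its proportion. The T cells had 1 gene above its proportion, Mmp9, read in 4 of 95 cells of Abi3-/- mouse 1 and 3 of 76 of Abi3+/+ mouse 2. Its levels there were 207 and 193 CPM, where the proportion to S100a8 gives 0.348 and 8.33. The S100a8 behind these proportions was 19 reads in 1 T cell and 388 reads in 3. A cell with Mmp9 had at least 25 and 12 of its reads in these libraries, so 1 T cell with a read would put Mmp9 above its proportion. Clec4d, Clec4e, S100a9 and Trem1 had 0 reads in the 307 T cells, which allows a share of up to 0.977%.

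Most S100a8 reads of microglia thus lay in cells with no other member, but some lay in cells with more. In Abi3-/- mouse 2, leaving out the 24 microglia that had another member lowered the S100a8 level from 265 to 137 CPM and the share only from 6.08% to 5.95%. In Abi3+/+ mouse 2 it fell from 127 to 88.5 CPM when 10 such cells were left out. Droplets or wells with both cell types were not called here, and their part in these values was not tested. Microglia with and without Cst7, a gene of the amyloid-associated state, had S100a8 in 0.465% and 0.229% (Abi3-/- mouse 1), 5.89% and 6.24% (Abi3-/- mouse 2), 0.763% and 0.917% (Abi3+/+ mouse 1) and 1.97% and 2.14% (Abi3+/+ mouse 2), a difference that was not tested.

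The genotypes were compared for the members next. In microglia, 0 of the 6 members and 0 of 319 genes (0%) differed between Abi3-/- and Abi3+/+ mice by edgeR, with 25 genes under an unadjusted p of 0.05, none of them a member, and 9 called by DESeq2. S100a8 had a log2 fold change of 1.25 ± 1.52 (SE, adjusted p = 0.925 by edgeR), which was -1.38 without Abi3-/- mouse 2. Microglia with a read of any member made up 0.461% (Abi3-/- 1), 6.49% (Abi3-/- 2), 0.906% (Abi3+/+ 1) and 2.29% (Abi3+/+ 2), or 3.47 ± 4.26% and 1.60 ± 0.981% (mean ± SD, n = 2 each; exact permutation test, two-sided p = 1). Leaving out Abi3-/- mouse 2 turned this difference from 1.87 to -1.14 percentage points. In the CPM of microglia, 3 members (S100a9, Clec4e and Trem1) did not overlap between the genotypes, beside 43.6% of all genes tested. The Cxcr2-positive share of kept cells was 0.172% (Abi3-/- 1), 1.78% (Abi3-/- 2), 0.158% (Abi3+/+ 1) and 0.531% (Abi3+/+ 2). This difference of 0.631 percentage points (exact permutation test, two-sided p = 0.667) was -0.172 without Abi3-/- mouse 2.

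Within the Cxcr2-positive cells, the fit had 1 Abi3-/- mouse against 2 Abi3+/+ mice, and the lone sample is assumed to vary like the others. Of the 6 members and of 201 genes (0%), 0 differed by edgeR, 2 genes had an unadjusted p under 0.05, neither a member, and DESeq2 called 0. Trem1 had the lowest p of the members. Its level was 2246 and 2542 CPM without Abi3 and 4680 and 4647 CPM with it, so the genotypes did not overlap (exact permutation test, two-sided p = 0.333, the smallest possible). The fit, without the 4-cell mouse, gave -0.85 ± 0.44 (SE, adjusted p = 0.993 by edgeR). S100a8 was the other member whose CPM did not overlap, and 23.9% of all genes tested did not. In macrophages Clec4d and Clec4e could be tested between genotypes, and the adjusted p from edgeR were 0.999 and 0.990, with 0 of 244 genes called, 16 under an unadjusted p of 0.05 and 11 called by DESeq2.

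Other genes known from neutrophils were set beside the members, from a list of 14. Of these, 11 could be tested. By edgeR, 10 were higher in Cxcr2-positive cells than in microglia and 0 lower, beside 40 higher (14.9%) and 68 lower of all 269 genes. The median log2 fold change of the 11 was 6.76 against -2.97 for all genes. Genes of this list that are low in microglia could pass the filter on low counts through the class in which they are high, so this count is a description. Among the 10 higher genes were Il1r2 (the decoy receptor for interleukin-1), Il1b and its antagonist Il1rn, the chemokine Cxcl2, the receptors Ccr1 and C5ar1, Aqp9, Ifitm2 and Mgst1. Slc11a1 (NRAMP1, a metal transporter of phagosomes) did not pass, at -1.80 ± 0.87 (SE, adjusted p = 0.120 by edgeR), and was read in 89.6% of microglia and 57.9% of Cxcr2-positive cells. Several of these genes were also read in macrophages, unlike S100a9, Mmp9 and Trem1. Ifitm2 was read in 81.7% of macrophages and Ccr1 in 52.1%, and 5 of the 11 were higher in macrophages than in microglia, beside 33 of all 269 genes (12.3%), and Slc11a1 was lower (adjusted p = 0.0276 by edgeR). Elane, neutrophil elastase, a granule gene of immature neutrophils in the marrow, was read in 0 of the 107 Cxcr2-positive cells, which allows a share of up to 2.80%, and in 4 of the 71 macrophages.

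Known partners of the members' products were also set beside them. Of 11 such genes tested between Cxcr2-positive cells and microglia, 0 were higher and 1, Nfkb1, was lower, beside 40 higher and 68 lower of all 269. Their median log2 fold change was -1.07 against -2.97 for all genes. Nfkb1 had a log2 fold change of -1.94 ± 0.53 (SE, adjusted p = 0.0223 by edgeR). Fcer1g, the signalling chain that both lectins need, was read in 100% of Cxcr2-positive cells, 98.6% of macrophages and 99.5% of microglia, and did not pass (-0.33 ± 0.36, SE, adjusted p = 0.458). The calprotectin receptor Tlr4 was read in 12.1% of Cxcr2-positive cells and 14.5% of microglia, with its co-receptors Ly96 in 20.6% and 28.8% and Cd14 in 43.9% and 84.8%. None of these 3 passed (adjusted p 0.574, 0.641 and 0.110). Il6 was read in 10.8% of microglia and 0 of the 107 Cxcr2-positive cells, and did not pass (adjusted p = 0.0666 by edgeR).

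The genes whose levels were most like those of the members were found by the correlation of log2(CPM + 1) with the mean of the 6, across 17 sums of a class in a mouse. Among the 5 most alike were Cxcr2 (r = 0.937), Il1rn (0.868), Cxcl2 (0.850) and Il1b (0.843). Cxcr2 defines the Cxcr2-positive class, and cells with a read of it were kept out of the microglia, so its likeness follows from the gate. The sums share libraries and are not independent, and so few Cxcr2-positive sums stand apart from all others that r is given as a description.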

How the data were processed

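Brain cells of 2 Abi3-/- and 2 Abi3+/+ male 5XFAD mice were profiled on BD Rhapsody with a panel of 397 immune genes, 1 library a mouse. The authors ran the platform's targeted pipeline at default settings (genome build mm10 per the submitters' processing notes) and deposited, for each cell, whole counts of reads after their distribution-based error correction. These counts are reads and not molecules, so intervals and floors cover counting error only. The version of the pipeline is not given in the sources used here.

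The members, gene lists and gates were chosen with earlier results of these data known. The named genes are the 6 members, Cxcr2, Trem2, the genes of the 2 lists and the 5 genes most like the members. Some results under this rule are not reported here. Sums of reads per class and mouse (at least 5 cells) entered edgeR 4.0.16 (TMM, quasi-likelihood test, default filter, Benjamini-Hochberg, threshold 0.05) in R 4.3.3, with the mouse as a block between classes and without a block between genotypes. The genes that define a gate were dropped from the fits between classes and kept in those between genotypes. Only the groups compared entered a genotype fit. Shares were compared by exact permutation with scipy 1.17.1. The scripts were tested on simulated data. DESeq2 1.42.0, limma 3.58.1 on mean log-normalized values, other scalings, filters and gates, a replicate block and leaving out each mouse were alternatives. No doublet caller was used. Each p rests on these 4 mice only, and the fits with Cxcr2-positive cells lack that sum of Abi3-/- mouse 1. Between classes the mouse is a block, so there the p rests on how class differences vary from mouse to mouse. Promoters and positions came from RefSeq tables of GRCm38.p6.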

Additional observations from a re-analysis of the deposited data

Results flagged for a closer look

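Cells outside the comparisons held many neutrophils. Above the upper read limit lay 2 Cxcr2-positive cells of Abi3-/- mouse 1, 57 of Abi3-/- mouse 2, 5 of Abi3+/+ mouse 1 and 37 of Abi3+/+ mouse 2, together 101 against the 107 that were kept. The limit took 33.3%, 41.6%, 45.5% and 67.3% of the Cxcr2-positive cells of these mice, against 6.28%, 7.33%, 7.91% and 9.79% of all their cells. S100a8 made up a median of 71.9%, 74.5%, 75.4% and 78.8% of the reads of these cells, above the 35.9%, 57.1%, 53.9% and 62.3% in the kept ones. Without their S100a8 reads, 97 of the 101 would lie under the limit. Counted over all cells, Cxcr2-positive cells numbered 6, 137, 11 and 55, or 0.176%, 2.12%, 0.177% and 1.08% of the library.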

How the results depend on the processing

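Counts of genes called moved with the setting, and the cause was not tested. Between genotypes, DESeq2 called 9 genes in microglia and 11 in macrophages against 0, and leaving out each mouse gave 0 to 2 in microglia. Between Cxcr2-positive cells and microglia (108 called) DESeq2 gave 171, and leaving out a mouse gave 40 (Abi3+/+ 2), 48 (Abi3+/+ 1), 99 or 118. Between macrophages and microglia (59) DESeq2 gave 119, limma 109, no mouse block 91 and a Trem2 gate from 1 read 89, and leaving out a mouse gave 21 to 43. Between Cxcr2-positive cells and macrophages (65) DESeq2 gave 145 and limma 121, and leaving out a mouse gave 22 to 68. With fewer mice the fits have fewer samples. Without Abi3-/- mouse 2 the genotype difference turned to -0.172 percentage points for the Cxcr2-positive share and to -1.14 for microglia with any member. Leaving out each mouse gave ranges of -0.172 to 1.43 and -1.14 to 4.89. S100a8 between genotypes turned to -1.38 in microglia without that mouse (-1.38 to 3.31 over the mice left out) and to 0.088 in Cxcr2-positive cells with the Trem2 gate from 1 read (log2 scale). Across the settings tried, the 6 members kept their direction in both comparisons of Cxcr2-positive cells, and S100a8, Clec4d and Clec4e did between macrophages and microglia. There the fitted Mmp9 value turned to 2.51 with a gate of 2 macrophage genes and the S100a9 value to 1.44 with DESeq2, but both genes had 0 reads in the macrophages of the 4 mice with the gate of 3 genes, so their fitted values rest on the prior count and no direction is read. As paired analysis, a replicate block called 0 genes in microglia and 0 in macrophages. The deviations of same-numbered mice correlated at 0.146 in microglia and 0.115 in macrophages, but with 2 numbers, and no label that ties a number to a shared litter or day, whether the numbers mark pairs could not be settled. In Cxcr2-positive cells the replicate block and the fits without Abi3-/- mouse 2, Abi3+/+ mouse 1 or Abi3+/+ mouse 2 could not be fitted. The setting without microglia that had 2 or more members was chosen after seeing the data and kept the direction.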

Other observations

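Over all cells before any filter, S100a8 made up 0.273% and 4.25% of the reads of Abi3-/- mice 1 and 2 and 0.769% and 3.96% of those of Abi3+/+ mice 1 and 2. Of these S100a8 reads, 95.2%, 95.5%, 74.8% and 90.3% lay in Cxcr2-positive cells.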
